A study of Mus musculus with 8 samples.

Results

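The peaks of a PEG3 antibody were compared with the peaks of an H3K9me3 antibody in the same cells, separately in Peg3 wild-type and Peg3 knockout mouse embryonic fibroblasts. A site was called dual where a PEG3 peak and an H3K9me3 peak of 1 genotype overlapped by at least 1 bp, and otherwise PEG3 only or H3K9me3 only. All 581 peaks of the 4 deposited lists entered: 152 PEG3 and 173 H3K9me3 peaks of the wild type, and 163 PEG3 and 93 H3K9me3 peaks of the knockout. Of the wild-type peaks, 23 PEG3 and 23 H3K9me3 peaks were dual, 129 were PEG3 only and 150 were H3K9me3 only. Of the knockout peaks, 21 PEG3 and 19 H3K9me3 peaks were dual, 142 were PEG3 only and 74 were H3K9me3 only.

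The data came from chromatin immunoprecipitation with sequencing (ChIP-seq), in which DNA bound by the target of an antibody is enriched and sequenced. The fibroblasts were of the C57BL/6 strain and were taken from embryos at 14.5 days post coitum, and there was 1 library for each genotype and antibody. Both antibodies of a genotype were compared by the authors with the same input, DNA that was not enriched, so the background under the lists is shared. Neither the number and sex of the embryos, nor the knockout allele, nor the source of the antibodies is given in the labels used. The 4 libraries kept between 16986250 and 27289192 tags, and the PEG3 libraries were the shallower ones of each genotype.

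PEG3 is a zinc finger protein that binds DNA, encoded by an imprinted gene that is expressed from the paternal copy. Trimethylated lysine 9 of histone H3 (H3K9me3) is a histone mark of silent chromatin, known above all from repeated DNA, pericentromeric satellites and clustered gene families. The peak lists record where each antibody enriched DNA and not the protein or the mark itself.

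The sequence beneath the peaks could be read where a peak overlapped a promoter window of RefSeq (build GRCm38.p6), 300 bp long, from 250 bp before to 50 bp after the start of a gene. Nearly all such overlaps belonged to PEG3 only peaks: 26 of 129 in the wild type, over 23 genes, and 8 of 142 in the knockout, over 8 genes. The 7-letter word GGGTTAA, or TTAACCC on the other strand, was present in the windows of 11 of the 23 wild-type genes (47.8%) and 4 of the 8 knockout genes. Of all 27025 genes with a promoter window 2.64% held it. Counted by window it was 13 of 28 (46.4%) in the wild type, against 2.30% of all 32851 windows and 1.92% of the 11378 windows with 15 or more CG dinucleotides. The word was noticed in these sequences and then counted in them, so its share is a description of this set and not a test. Among all 8192 words of 7 letters (both strands joined), 0 had a larger excess over all genes in the wild-type set and 2 had a larger one in the knockout set. The 6 windows below are shown because they carry it under a PEG3 only peak of the wild type, and the first 3 of them do so in the knockout as well. They read 5′ to 3′ on the strand of the gene, and the capitals mark the word.
Sephs1, chr2:4881977-4882276, plus strand: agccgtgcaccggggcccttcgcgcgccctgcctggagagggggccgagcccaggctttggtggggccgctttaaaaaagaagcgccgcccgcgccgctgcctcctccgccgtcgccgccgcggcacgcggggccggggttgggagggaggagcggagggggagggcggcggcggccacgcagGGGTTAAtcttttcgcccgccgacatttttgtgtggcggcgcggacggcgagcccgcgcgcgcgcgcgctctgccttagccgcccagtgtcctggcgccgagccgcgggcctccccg
Zfp629, chr7:127615223-127615522, minus strand: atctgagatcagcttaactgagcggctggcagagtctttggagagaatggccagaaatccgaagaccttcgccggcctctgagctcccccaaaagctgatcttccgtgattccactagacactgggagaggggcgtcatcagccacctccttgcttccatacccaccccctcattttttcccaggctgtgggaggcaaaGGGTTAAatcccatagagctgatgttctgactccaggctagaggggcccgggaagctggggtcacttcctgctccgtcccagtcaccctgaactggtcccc
Wwc2, chr8:47990495-47990794, minus strand: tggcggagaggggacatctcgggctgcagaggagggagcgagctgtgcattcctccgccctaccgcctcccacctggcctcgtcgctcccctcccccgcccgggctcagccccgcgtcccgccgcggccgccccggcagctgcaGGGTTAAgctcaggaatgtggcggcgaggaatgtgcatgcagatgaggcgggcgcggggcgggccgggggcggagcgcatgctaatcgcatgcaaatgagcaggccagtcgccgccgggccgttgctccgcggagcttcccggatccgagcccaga
Tob2, chr15:81858277-81858576, minus strand: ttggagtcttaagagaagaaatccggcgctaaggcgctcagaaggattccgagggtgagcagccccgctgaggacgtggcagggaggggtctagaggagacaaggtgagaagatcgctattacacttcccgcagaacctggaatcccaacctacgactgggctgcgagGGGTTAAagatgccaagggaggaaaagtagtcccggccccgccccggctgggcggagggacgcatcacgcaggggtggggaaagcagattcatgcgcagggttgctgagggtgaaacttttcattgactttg
Abl1, chr2:31759689-31759988, plus strand: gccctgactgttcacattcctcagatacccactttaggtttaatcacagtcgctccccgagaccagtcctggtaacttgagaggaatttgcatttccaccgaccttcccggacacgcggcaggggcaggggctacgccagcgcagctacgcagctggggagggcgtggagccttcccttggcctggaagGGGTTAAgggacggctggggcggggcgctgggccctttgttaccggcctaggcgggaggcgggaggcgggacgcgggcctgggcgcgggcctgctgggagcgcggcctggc
Efna4, chr3:89337979-89338278, minus strand: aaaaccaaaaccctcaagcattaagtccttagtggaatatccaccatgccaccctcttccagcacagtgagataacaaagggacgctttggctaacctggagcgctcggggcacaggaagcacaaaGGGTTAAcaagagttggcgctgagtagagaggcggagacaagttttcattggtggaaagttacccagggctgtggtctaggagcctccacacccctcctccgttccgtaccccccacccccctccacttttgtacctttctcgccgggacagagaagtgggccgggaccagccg
Sephs1 encodes a selenophosphate synthetase family member, Zfp629 a zinc finger protein, and Wwc2 a scaffold protein of the Hippo pathway. Tob2 encodes an antiproliferative protein, Abl1 a tyrosine kinase and Efna4 an ephrin ligand. The other genes with the word were Fam214b, Spsb2, Znrf1 and the predicted genes Gm51458 and Gm52428. In the wild type 13 of 14 occurrences lay inside the PEG3 peak. The median distance of the 14 from the summit was 34.5 bp (range 2 to 179 bp), and 8 lay within 50 bp of it. At Znrf1 the word overlaps its form on the other strand, and this 1 stretch enters as 2 occurrences, at 110 and 113 bp. In the knockout 3 of 4 lay inside the peak, at 16 to 123 bp from the summit. At Tob2 the word lay 2 bp from the summit and at Abl1 4 bp. The word was not searched for outside promoter windows, where no genome sequence was used here.

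A further 3 windows are shown for contrast, with the bases covered by the wild-type peak in capitals: Hexim1 under a PEG3 only peak, and Gm40237 and Duxf3 under H3K9me3 only peaks.
Hexim1, chr11:103116075-103116374, plus strand: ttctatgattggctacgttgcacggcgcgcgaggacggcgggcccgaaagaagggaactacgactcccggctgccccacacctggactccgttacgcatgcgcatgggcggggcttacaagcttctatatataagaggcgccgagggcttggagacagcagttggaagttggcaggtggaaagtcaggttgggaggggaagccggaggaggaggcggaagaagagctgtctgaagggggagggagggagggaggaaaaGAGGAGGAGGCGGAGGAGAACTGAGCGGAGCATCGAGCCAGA
Gm40237, chr4:118547156-118547455, plus strand: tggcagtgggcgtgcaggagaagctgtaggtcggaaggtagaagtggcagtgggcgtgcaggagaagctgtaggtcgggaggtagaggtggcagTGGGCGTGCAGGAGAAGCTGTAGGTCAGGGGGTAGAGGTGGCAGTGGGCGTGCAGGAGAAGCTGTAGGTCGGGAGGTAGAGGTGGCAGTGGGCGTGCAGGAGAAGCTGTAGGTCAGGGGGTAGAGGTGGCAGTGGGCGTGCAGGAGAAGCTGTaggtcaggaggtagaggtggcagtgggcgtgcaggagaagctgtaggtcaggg
Duxf3, chr10:58233040-58233339, minus strand: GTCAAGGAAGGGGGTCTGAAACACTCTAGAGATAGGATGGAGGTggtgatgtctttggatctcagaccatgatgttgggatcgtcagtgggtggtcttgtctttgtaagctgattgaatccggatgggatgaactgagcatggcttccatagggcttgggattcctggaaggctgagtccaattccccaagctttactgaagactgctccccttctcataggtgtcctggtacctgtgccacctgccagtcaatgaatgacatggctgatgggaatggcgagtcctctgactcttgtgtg
The window of Hexim1, whose product restrains transcription elongation, lacks the word, and the peak covers 42 of its bases at the start of a peak of 1049 bp. Gm40237, a predicted noncoding RNA gene, begins in a tandem repeat, in which a run of 20 bases recurs 7 times at a spacing of 44 bp. A run of this length occurs 5 or more times in 0.606% of all promoter windows. Duxf3 encodes a double homeobox protein of the early embryo. These were the 2 promoter windows with an H3K9me3 only peak in the wild type, and Gm40237 was the 1 in the knockout. No dual peak overlapped a promoter window, so the sequence of the dual sites is not shown.

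The overlap between the antibodies was a small part of each list. In the wild type 15.1% of PEG3 peaks (interval 9.84% to 21.8%) and 13.3% of H3K9me3 peaks (8.62% to 19.3%) were dual. In the knockout the shares were 12.9% (8.16% to 19.02%) and 20.4% (12.8% to 30.1%). Where an overlap of at least 50% of both peaks was required, 12 peaks of each list stayed dual, 7.89% of PEG3 and 6.94% of H3K9me3 peaks in the wild type and 7.36% and 12.9% in the knockout. These are 95% exact Clopper-Pearson intervals. They describe the listed peaks, treat neighbouring peaks as independent and cover counting error only. With 1 library for each genotype and antibody there is no replicate error, so no difference below was tested and no p-value is given.

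The dual peaks formed 22 separate sites in the wild type and 19 in the knockout, many of them side by side. Joined over 10 kb they made 17 regions in the wild type and 11 in the knockout, 20 regions in all. Both genotypes had a dual site in 8 of the 20, the wild type alone in 9 and the knockout alone in 3. The summits of the paired peaks lay close together. Over the 23 dual PEG3 peaks of the wild type the median distance was 11 bp (range 0 to 499 bp). Over the 21 of the knockout it was 9 bp (0 to 497 bp). Between the highest peaks of each site the largest distance was 353 bp in the wild type and 322 bp in the knockout. Summits lay within 50 bp of each other at 17 of 22 wild-type and 16 of 19 knockout sites. The PEG3 peak lay wholly inside the H3K9me3 peak for 18 of 23 wild-type and 14 of 21 knockout dual peaks.

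The named dual sites in protein-coding genes were few. Smo, which encodes the signal transducer of the Hedgehog pathway, had a dual site in both genotypes (chr6:29748303-29748651 in the wild type). Its height, the number of fragments over the summit per 1000000 kept ChIP tags, was 1.78 with the PEG3 antibody and 2.89 with the H3K9me3 antibody in the wild type, and 1.71 and 2.05 in the knockout. The H3K9me3 antibody was thus higher in both genotypes, and the interval of the PEG3 over H3K9me3 ratio lay below 1 in the wild type (0.614, 0.405 to 0.919) and held 1 in the knockout (0.832, 0.512 to 1.33). A second H3K9me3 peak in Smo, at 29747880 in the wild type and 29747886 in the knockout, overlapped no PEG3 peak. At 29748836 the wild type had an H3K9me3 only peak of 1.41, and at 29748843 the knockout had a PEG3 only peak of 1.47, so this spot was listed with a different antibody in each genotype.

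Dpp9, which encodes an intracellular dipeptidyl peptidase, had the reverse order of heights. Its dual site (chr17:56199977-56200099) reached 2.48 with PEG3 and 1.06 with H3K9me3 in the wild type, and 3.65 and 0.843 in the knockout. The ratio was 2.33 (1.45 to 3.82) in the wild type and 4.33 (2.65 to 7.32) in the knockout, both wholly above 1. The peaks were narrow, 123 bp with PEG3 and 100 bp with H3K9me3 in the wild type, and their summits lay 2 bp apart.

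Tmem267, which encodes a membrane protein, held 2 dual sites in the wild type and 1 in the knockout. At the site shared by both genotypes (chr13:119596662-119597124) the PEG3 height was 2.01 and the H3K9me3 height 3.38 in the wild type, and 1.88 and 2.199 in the knockout. H3K9me3 peaks within 10 kb of these sites numbered 11 in the wild type and 8 in the knockout, so the PEG3 peaks lay within a longer run of H3K9me3 peaks.

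Dual sites in protein-coding genes of the wild type alone lay in Sos2, Dlgap2, Peg3 and Asmt. Sos2, which encodes an activator of Ras, had heights of 1.45 with PEG3 and 2.51 with H3K9me3. Dlgap2, which encodes a scaffold protein of synapses, had 1.68 and 2.17. Asmt, which encodes the last enzyme of melatonin synthesis and lies at the end of the X chromosome, had 3.08 and 2.93, and its ratio of 1.05 (0.747 to 1.48) held 1. The knockout listed an H3K9me3 peak at the Sos2 and Dlgap2 sites but no PEG3 peak, and neither antibody at Asmt. Duxf3 had a dual site in the knockout alone (chr10:58231874-58232033), with 1.77 for PEG3 and 1.25 for H3K9me3. The wild type had an H3K9me3 peak of 1.94 over the same stretch and no PEG3 peak.

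Peg3, the targeted gene (chr7:6703892-6730462), was the dual site with the largest ratio between the antibodies, leaving aside a site with a capped PEG3 height. In the wild type the PEG3 peak of 4250 bp had a height of 2.71 and contained 2 H3K9me3 peaks, the higher of 0.532, a ratio of 5.09 (2.80 to 9.88). The knockout listed 19 PEG3 peaks and 0 H3K9me3 peaks in the gene, all of them PEG3 only, against 13 PEG3 peaks in the wild type, of which 1 was dual. The PEG3 peak of the knockout at the same place had a height of 3.59. Whether PEG3 protein was missing from the knockout cells cannot be read from these lists, so no class is described here as protein binding.

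The remaining dual regions lay in or near predicted genes, noncoding RNAs and pseudogenes, or beyond a gene. Runs of dual sites in both genotypes lay at chr10:3111371-3117141, near the pseudogene Gm3318, with 3 dual PEG3 peaks in the wild type and 4 in the knockout. At the pseudogene Gm20590 (chr13:74528695-74530631) the numbers were 1 and 5, and in the noncoding RNA gene 2700054A10Rik (chr17:13550681-13553129) 3 and 4. At Gm20590 both genotypes listed 6 H3K9me3 peaks within 10 kb, so it was the number of PEG3 peaks that differed. Gm36684, a noncoding RNA gene (chr17:13305969-13306229), had a dual site in both genotypes, with 2.38 for PEG3 and 4.22 for H3K9me3 in the wild type and 2.18 and 2.97 in the knockout.

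The wild type alone had 2 dual sites outside Gm39469 (chr9:124256329-124256849 and chr9:124257352-124258005), with PEG3 heights of 4.67 and 3.13 and H3K9me3 heights of 5.74 and 4.64, 1 beside Gm40237 (chr4:118548466-118548703) with 2.15 and 3.84, and 1 on chromosome 16 at 3236045 with 0.561 and 1.03. The knockout listed H3K9me3 and not PEG3 at all 4. The knockout alone had dual sites outside Gm15319 (chr8:20331188-20331445), with 1.35 for PEG3 and 1.06 for H3K9me3, and on the Y chromosome at 142861, nearest to LOC665918, with 3.002 and 2.89. Near Aadac, an esterase gene, the wild type had a dual site 5066 bp outside the gene, with heights of 2.48 for PEG3 and 3.31 for H3K9me3.

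The site in the noncoding RNA gene Gm34259 (chr17:4626162-4626598) had the highest PEG3 peak of the dual sites, 9.53 in the wild type and 11.7 in the knockout, against 3.42 and 3.70 with H3K9me3. Both PEG3 values lay at or near the ceiling of the authors' duplicate filter, which keeps 1 tag per position and strand and so allows at most 208 fragments over a base in the wild-type and 198 in the knockout PEG3 library. Its ratios of 2.79 (2.16 to 3.61) and 3.15 (2.47 to 4.04) are therefore capped. Near the pseudogene Gm18326 (chr6:132463686-132463820) the wild type had 2.80 and 0.837, and the knockout a PEG3 only peak of 4.36.

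**Figure D1:**
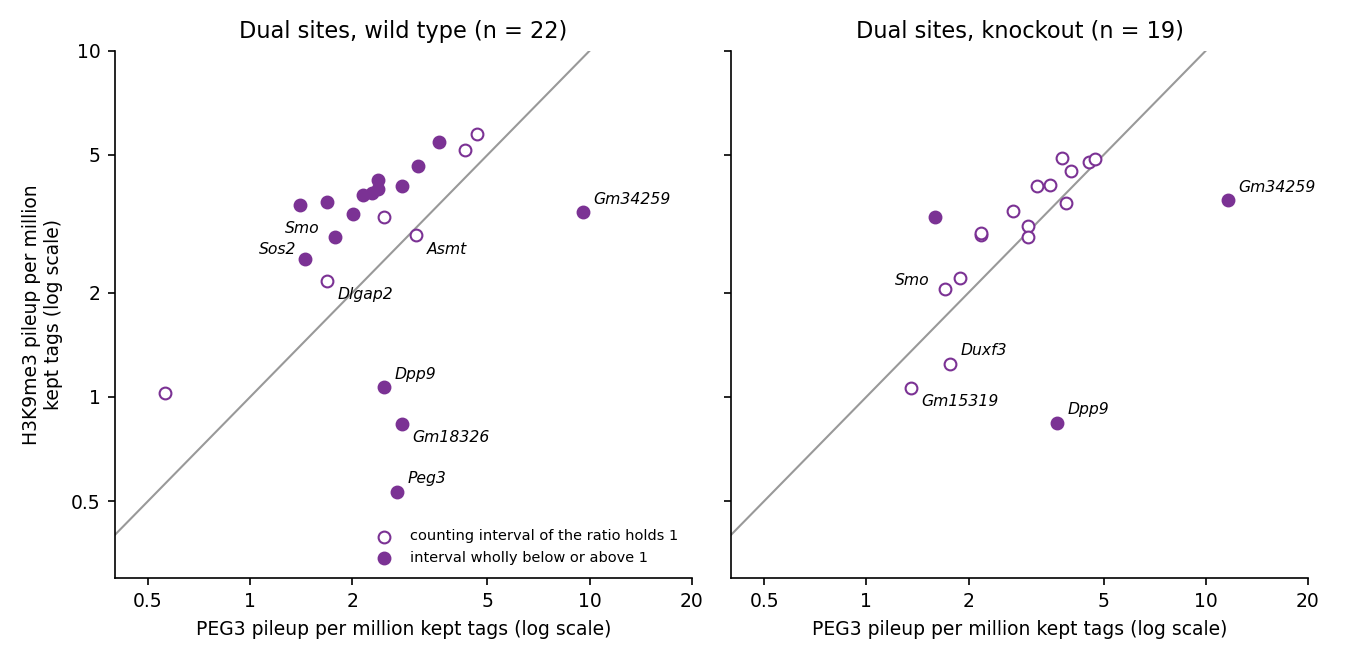
Height of the PEG3 peak (x axis) against the H3K9me3 peak (y axis) at each dual site, both as pileup per 1000000 kept ChIP tags on log axes, in the wild type (22 sites) and knockout (19 sites), with the line of equal height. Filled points have a ratio interval wholly on 1 side of 1. Most sites lie above the line, and Dpp9 and Gm34259 lie well below it in both panels.

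Across the dual sites the balance of the antibodies differed between the sites and with the measure. The pooled PEG3 over H3K9me3 height was 0.849 in the wild type (0.791 to 0.911, from 1313 and 1901 fragments) and 1.06 in the knockout (0.981 to 1.14, from 1091 and 1654 fragments). The median over sites was 0.668 in the wild type and 0.888 in the knockout. In the wild type 12 of 22 sites (54.5%) had a ratio interval wholly below 1 and 4 (18.2%) wholly above 1. In the knockout 1 of 19 (5.26%) lay wholly below and 2 (10.5%) wholly above. The 4 wild-type sites above 1 were Peg3, Gm18326, Gm34259 and Dpp9, and the 2 of the knockout were Dpp9 and Gm34259. The authors' fold enrichment is the pileup over the local input, or over a genome-wide floor where that floor is higher. By this fold the H3K9me3 antibody was higher at 18 of 22 wild-type and 15 of 19 knockout sites. Without the site at the ceiling the pooled ratio was 0.753 (0.698 to 0.811) in the wild type and 0.924 (0.850 to 1.004) in the knockout, so the direction in the knockout rests on that site. With a reciprocal overlap of 50%, at 12 sites in each genotype, it was 1.018 (0.919 to 1.13) and 1.27 (1.15 to 1.41).

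Dual peaks were high peaks of both wild-type lists. The median PEG3 height of the wild type was 2.48 (quartiles 1.89 to 2.94) at dual peaks and 0.981 (0.795 to 1.36) at PEG3 only peaks, a ratio of 2.52. The median H3K9me3 height was 3.42 (2.34 to 4.03) at dual and 1.10 (0.685 to 1.91) at H3K9me3 only peaks, a ratio of 3.10. In the knockout H3K9me3 list the medians were 3.30 and 1.87, a ratio of 1.76. The classes overlapped in range in every list.

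In the knockout PEG3 list the medians were 3.002 at dual and 2.24 at PEG3 only peaks, and this comparison turned on the ceiling peaks. Of the 142 PEG3 only peaks of the knockout, 46 lay at or above 80% of the ceiling, against 0 of 129 in the wild type. They included 27 at chr9:3000323-3038234, 6 at chr2:98662287-98667287 and 5 at chr14:19415747-19418885, with folds between 1.5001 and 2.32. The 1 further knockout PEG3 peak at the ceiling, in Gm34259, was dual. Without all peaks at the ceiling the dual over PEG3 only ratio of medians was 2.83 in place of 1.34. Without peaks in the Peg3 gene, with the ceiling peaks kept, it was 0.879.

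**Figure D2:**
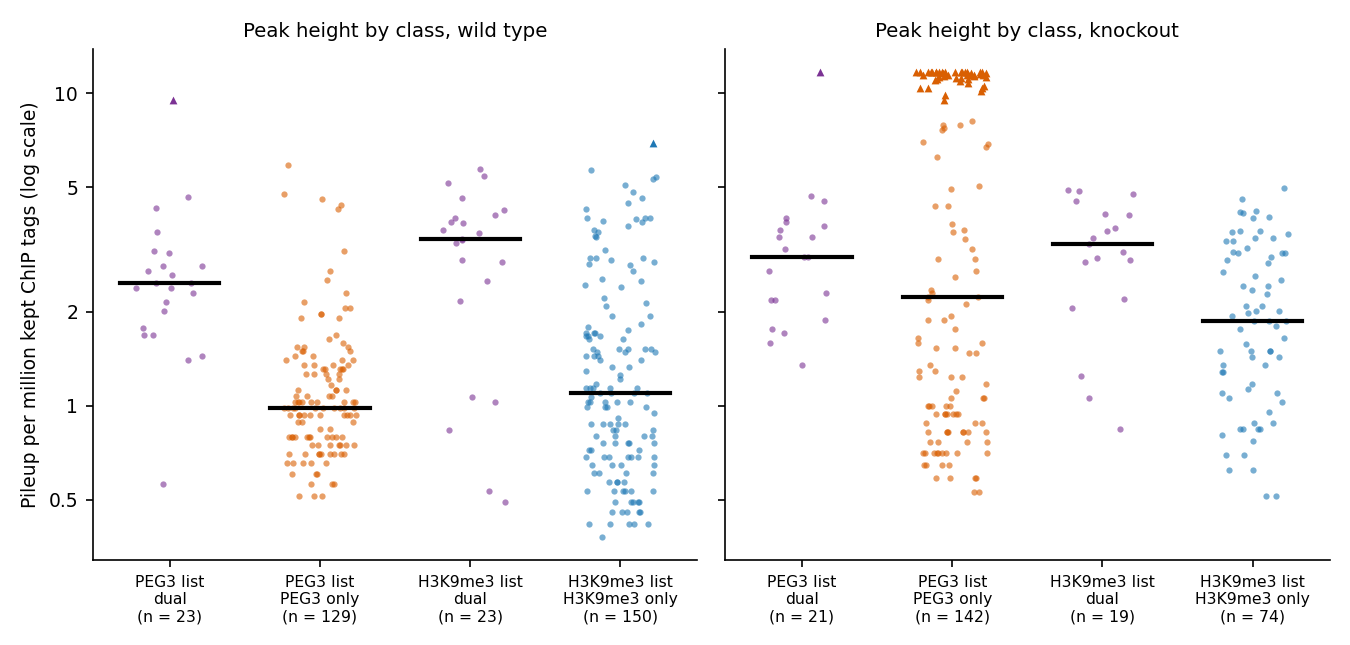
Height of every peak by class on a log axis (pileup per 1000000 kept ChIP tags), for each list and genotype, with bars at the medians and triangles for peaks at 80% or more of the duplicate-filter ceiling. The dual median lies above the median of the other class in all 4 lists, and the ceiling peaks form a separate upper group in the knockout PEG3 only class.

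The highest PEG3 only peaks of the wild type lay mostly in protein-coding genes. Hexim1 had a height of 4.58 in the wild type and 2.94 in the knockout, with folds of 18.3 and 23.3. Chd9, a chromatin remodeller gene, had 4.39 in the wild type, and the peak in Cdc20b, which also covers the promoter window of the peroxidase gene Gpx8, had 4.25. Others of the 10 highest lay in Ddah2 (2.71), in the immunoglobulin heavy chain locus Igh (2.52) and in Dazap2 (2.29). The 2 highest of all, in the noncoding RNA gene Gm36876 (5.89) and in Cmss1 (4.77), had folds of 1.58 and 1.98 over a high input. The 10 highest PEG3 only peaks of the knockout were all at the ceiling. By fold, its leading PEG3 only peaks included Gm18326 (39.5-fold), Peg3 (32.6-fold), the chloride channel gene Ano2 (25.8-fold), Hexim1 and the ubiquitin ligase gene Marchf1 (20.5-fold).

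Many of the highest H3K9me3 only peaks lay in regions that also had a dual site. The 10 highest of the wild type lay in Tmem267 (6.96, at the ceiling), in Gm40237 (5.67), in 2700054A10Rik (5.32), at Gm20590 and near Gm3318 and Gm30674 on chromosome 10. Of the 10 highest of the knockout, 2 lay at Gm39469 (4.98 and 4.03) and 2 at Gm40237 (4.58 and 3.59), regions that were dual in the wild type alone. Others lay in Mdga2 (3.99), an adhesion molecule gene, and on the Y chromosome at 11858041 (4.21), where no dual region lay, and the rest near Gm3318 and Gm30674, at Gm20590 and in Tmem267. Of the 150 H3K9me3 only peaks of the wild type, 21 lay within 1000 bp of a PEG3 peak, and of the 74 of the knockout, 8. The PEG3 only peaks were farther from the other antibody: 1 of 129 lay within 1000 bp of an H3K9me3 peak in the wild type, in Peg3 at 6712658, and 1 of 142 in the knockout, in Smo at 29748843. These near misses are the sites just outside the rule.

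The ranking of the classes by height did not hold for the authors' fold enrichment. The median fold of wild-type PEG3 peaks was 3.44 at dual and 6.02 at PEG3 only peaks, and of knockout PEG3 peaks 4.27 and 5.26. Dual PEG3 peaks were thus higher than PEG3 only peaks by fragments and lower by fold. For H3K9me3 the dual medians were the higher ones by fold as well, 5.94 against 4.94 in the wild type and 4.98 against 4.19 in the knockout.

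The input background moved with the classes in the same direction as the heights. Per 1000000 kept input tags, its median was 0.535 at dual and 0.123 at PEG3 only peaks of the wild type, a ratio of 4.33, and 0.529 and 0.151 in the knockout, a ratio of 3.50. For the H3K9me3 lists the medians were 0.494 and 0.165 in the wild type, a ratio of 2.999, and 0.529 and 0.404 in the knockout, a ratio of 1.31. Of the 129 PEG3 only peaks of the wild type, 127 had a lower background than the dual median. Because each genotype has 1 input for both antibodies, a site with much input DNA counts so in both lists. The part of this background in the overlap was not tested.

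When PEG3 peaks were split by input background, at limits of 0.2 and 2 chosen after seeing the data, most dual peaks fell in the middle class. Of the wild-type peaks, 4 of 103 under 0.2 were dual, 19 of 47 between 0.2 and 2, and 0 of 2 above. In the knockout 1 of 76, 20 of 32 and 0 of 55 were dual, and 46 of those 55 were ceiling peaks. The dual PEG3 peaks with a background under 0.2 were those at Peg3, Dpp9, Gm18326 and on chromosome 16 at 3236048 in the wild type, and Dpp9 in the knockout. At Dpp9 the background was 0.123 in the wild type and 0.0529 in the knockout, with PEG3 folds of 14.8 and 33.2 and H3K9me3 folds of 6.72 and 9.76. In both knockout lists the background at Dpp9 was the genome-wide floor of the caller. The knockout folds of 33.2 and 9.76 are therefore not ratios to input counted at the site.

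**Figure D3:**
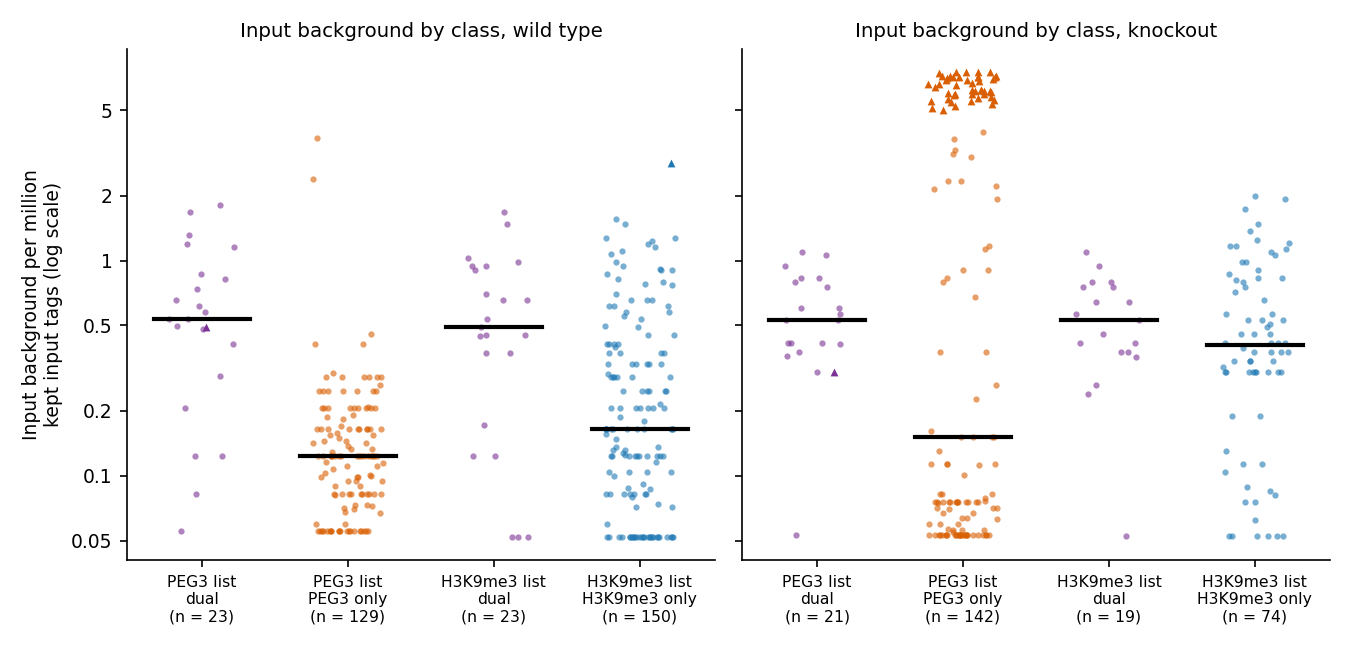
Input background under every peak by class on a log axis (per 1000000 kept input tags), recovered from the authors' pileup and fold, with bars at the medians and triangles for ceiling peaks. In the wild type the dual peaks centre near 0.5 and the PEG3 only peaks near 0.12. In the knockout 46 of the 47 ceiling peaks form an upper group of PEG3 only peaks, and the other one, at 0.302, is dual.

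Dual peaks were wider by median in the H3K9me3 lists, with overlapping quartiles in the knockout, while the PEG3 classes differed little. Dual H3K9me3 peaks had a median width of 261 bp in the wild type and 254 bp in the knockout, against 147.5 and 149 bp for H3K9me3 only peaks. Dual PEG3 peaks had a median width of 163 bp in both genotypes, against 176 bp for PEG3 only peaks of the wild type and 154 bp in the knockout. With a reciprocal overlap of 50% the dual over H3K9me3 only ratio of median widths fell from 1.77 to 1.52 (0.868 to 2.30) in the wild type and from 1.70 to 1.11 (0.711 to 1.60) in the knockout. A wider peak has more bases to overlap, so width is not independent of the rule. The widest PEG3 only peak of the wild type, of 2295 bp, lay in Topaz1.

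PEG3 only peaks lay at protein-coding genes more often than the other classes in the wild type. Their summit was in such a gene or within 1 kb of it for 95 of 129 peaks, or 73.6% (65.2% to 81.0%), where all wild-type PEG3 peaks gave 67.8%. The share was 8 of 23 for dual peaks, or 34.8% (16.4% to 57.3%), and 51 of 150 for H3K9me3 only peaks, or 34.0% (26.5% to 42.2%), where all wild-type H3K9me3 peaks gave 34.7%. The intervals of PEG3 only and the other classes did not overlap. In the knockout the shares were 47.2% (38.8% to 55.7%) for PEG3 only, 19.05% (5.45% to 41.9%) for dual and 35.1% (24.4% to 47.1%) for H3K9me3 only peaks, beside 43.6% of all PEG3 and 32.3% of all H3K9me3 peaks. Without the ceiling peaks the PEG3 only share of the knockout was 67.7% (57.4% to 76.9%), and without peaks in the Peg3 gene, with the ceiling peaks kept, 39.02% (30.4% to 48.2%). With genes of every type the order in the knockout changed, to 71.4% for dual, 55.6% for PEG3 only and 51.4% for H3K9me3 only peaks. In the wild type the intervals of dual (65.2%, 42.7% to 83.6%) and PEG3 only peaks (82.9%, 75.3% to 89.0%) then overlapped. H3K9me3 only peaks stayed lower than PEG3 only peaks, at 49.3% (41.1% to 57.6%). In the protein-coding gene body alone, PEG3 only (61.2%, 52.3% to 69.7%) and dual peaks (34.8%, 16.4% to 57.3%) of the wild type overlapped too.

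At promoter windows, too, the PEG3 only class had the highest share. A peak covered part of a window for 20.2% of PEG3 only peaks of the wild type (13.6% to 28.1%) and 5.63% of those of the knockout (2.46% to 10.8%), where the full PEG3 lists gave 17.1% and 4.91%. For dual PEG3 peaks it was 0 of 23, which allows up to 14.8%, and 0 of 21, which allows up to 16.1%. For H3K9me3 only peaks it was 2 of 150 and 1 of 74, where the full lists gave 1.16% and 1.08%. The upper limits of the dual class reach into the intervals of the PEG3 only class.

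The 7 genes with a PEG3 only peak over a promoter window in both genotypes were Gpx8, Hexim1, Pgk1, Sephs1, Wwc2, Zfp629 and the predicted gene Gm51458. They were 30.4% of the wild-type genes and 87.5% of the knockout genes. Pgk1, which encodes an enzyme of glycolysis, had a height of 1.45 in the wild type and 1.65 in the knockout. Wwc2 had 1.31 and 1.001, Zfp629 0.935 and 0.942, and Sephs1 1.07 and 0.706 at the window shown. The knockout alone had Dclre1a, a DNA repair nuclease gene, at 1.001. At Plekhh3 the wild-type peak of 2.06 overlapped a knockout PEG3 peak of 0.942 that lay outside the window. Wild-type peaks over a window that overlapped no knockout PEG3 peak included those at Pdk2 (1.64), a kinase of pyruvate metabolism, Rin1 (1.36), a Ras effector, Tbl1xr1 (0.795), a subunit of a corepressor complex, and Pds5a (1.17), a cohesin regulator. The windows under PEG3 only peaks were rich in CG dinucleotides, with a median of 20 per window in the wild type and 21 in the knockout, against 7 over all promoter windows. Windows with 15 or more made up 20 of 28 in the wild type (71.4%) and 7 of 9 in the knockout (77.8%), against 34.6% of all windows.

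**Figure D4:**
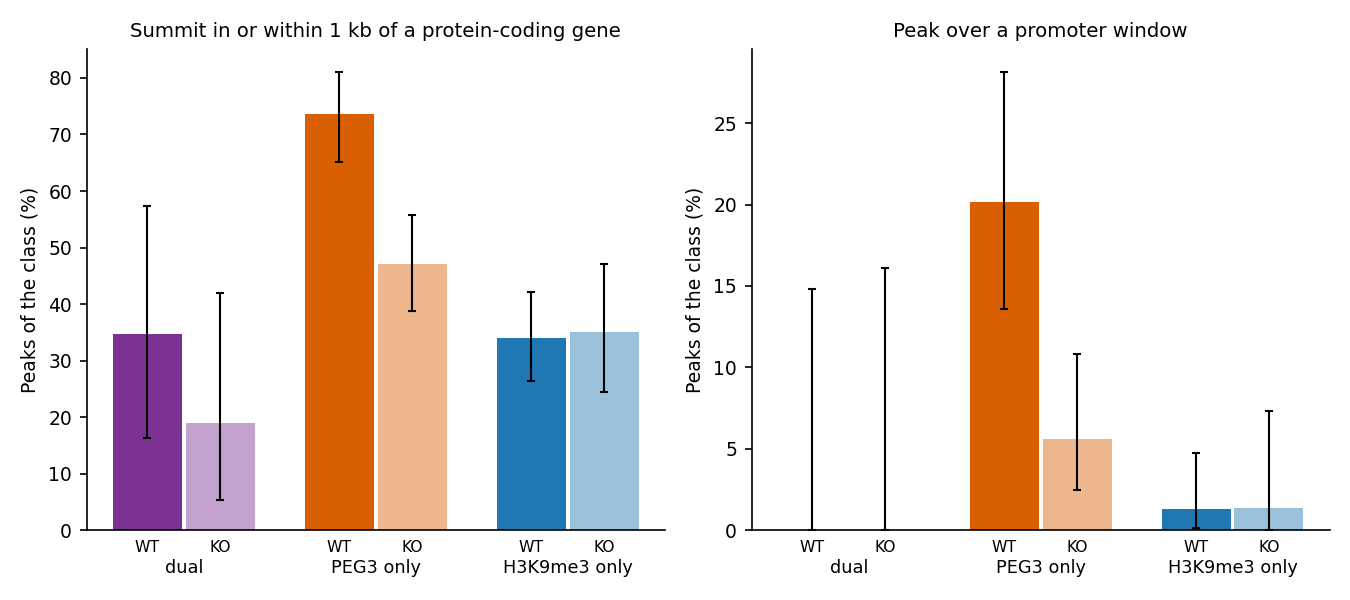
Share of peaks (%) with the summit in or within 1 kb of a protein-coding gene (left) and over a promoter window (right), by class and genotype, with dual peaks counted in the PEG3 lists and 95% exact binomial intervals. PEG3 only peaks are highest in both panels, at 73.6% and 20.2% in the wild type, and the dual bars on the right are at 0.

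Genes of the lists used here were sought within 10 kb of a peak. The counts of each list are small and were not tested against the shares of all genes. Of all 49993 genes with a position, 0.382% had a PEG3 only, 0.052% a dual and 0.202% an H3K9me3 only peak within 10 kb in the wild type, and 0.218%, 0.038% and 0.128% in the knockout. Of 33 imprinted genes, PEG3 only peaks lay within 10 kb of 3 in the wild type (Peg3, its neighbour Usp29 and H19). In the knockout they lay near 2 (Peg3 and Usp29). Every peak counted for Usp29 was also counted for Peg3, in both genotypes. A dual site lay at 1 imprinted gene (Peg3, wild type), and an H3K9me3 only peak at 0. Of 9 PEG3 targets recalled from earlier work, PEG3 only peaks lay at H19, Msl1 and Msl3 in the wild type and at Msl1 in the knockout, and none had an H3K9me3 peak. Of 11 Hedgehog genes, Smo had both antibodies in both genotypes, while Sufu, an inhibitor of the pathway, had PEG3 only peaks of 1.496 in the wild type and 0.942 in the knockout. Dhh, a ligand, had a PEG3 only peak 9293 bp away in the wild type. The PEG3 only peaks of the knockout lay in Sufu and Smo.

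The families with many members were counted in the same way, and their counts were not tested either. Of 2073 vomeronasal and olfactory receptor genes, H3K9me3 only peaks lay within 10 kb of 6 in the wild type and 4 in the knockout, with 0 PEG3 only and 0 dual sites, beside 0.202% and 0.128% of all genes with an H3K9me3 only peak. Of 11 repeated homeobox and early embryo genes 1 (Duxf3) had H3K9me3 only peaks in both genotypes and a dual site in the knockout. Of 438 zinc finger genes, H3K9me3 only peaks lay at 3 in the wild type (Zfp978, Zfp988 and Zfp991) and 1 in the knockout. All genes gave 0.202% and 0.128%. PEG3 only peaks lay at 2 zinc finger genes in the wild type (Zfp629 and Zfp41) and 1 in the knockout (Zfp629). For these all genes gave 0.382% and 0.218%. The 21 genes of the H3K9me3 machinery and the 12 fibroblast genes had no peak of either antibody within 10 kb, so the lists do not bear on the identity of the cells.

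The classes were also spread differently over the chromosomes. Dual PEG3 peaks lay on 12 chromosomes in the wild type, with 6 of 23 on chromosome 17, and on 6 in the knockout, with 7 of 21 on chromosome 17, 6 on chromosome 13 and 5 on chromosome 10. Single runs made up much of these counts. The run in 2700054A10Rik held 3 of the 6 and 4 of the 7 on chromosome 17. In the knockout Gm20590 held 5 of the 6 on chromosome 13, and 4 of the 5 on chromosome 10 lay near Gm3318. PEG3 only peaks lay on 21 chromosomes in the wild type and 20 in the knockout, most often on chromosome 7 in the wild type (20 peaks) and chromosome 9 in the knockout (33 peaks). The Peg3 gene itself held 12 of those 20, and 19 of the 23 PEG3 only peaks on chromosome 7 of the knockout. Within 2 Mb of the first or last listed gene of a chromosome lay 3 and 5 of 23 dual PEG3 peaks of the wild type, against 5 and 3 of 129 PEG3 only peaks. H3K9me3 only peaks lay there in 16 and 20 of 150 cases. The 3 dual peaks all lay near Gm3318, and the 5 lay in Tmem267 (2), outside Gm39469 (2) and in Asmt (1). The dual counts thus come from a few runs of neighbouring peaks. In the knockout the numbers were 5 and 1 of 21 dual, 30 and 8 of 142 PEG3 only and 11 and 11 of 74 H3K9me3 only peaks. Of those 5 dual peaks 4 lay near Gm3318, and the 27 ceiling peaks at the start of chromosome 9 are among the 30.

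Dual sites of 1 genotype were mostly H3K9me3 sites of the other. Dual PEG3 peaks were chosen by an H3K9me3 peak of their own genotype, so their contrast with other PEG3 peaks is not independent of the rule. Of the 23 dual PEG3 peaks of the wild type, 20 overlapped a knockout H3K9me3 peak (87.0%, 66.4% to 97.2%) and 11 a knockout PEG3 peak (47.8%, 26.8% to 69.4%), where all wild-type PEG3 peaks gave 13.2% and 40.8%. The same 20 peaks make up the whole of the 13.2%. Of the 21 of the knockout, 20 overlapped a wild-type H3K9me3 peak (95.2%, 76.2% to 99.9%) and 9 a wild-type PEG3 peak (42.9%, 21.8% to 66.0%), where all knockout PEG3 peaks gave 14.1% and 39.9%. A site dual in its own genotype was dual in the other for 9 of 23 and 9 of 21 peaks. The share of PEG3 only peaks with a PEG3 peak in the other genotype was 39.5% in the wild type and 39.4% in the knockout, and its intervals overlapped those of the dual peaks.

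PEG3 only peaks had almost no H3K9me3 peak in the other genotype, 0 of 129 in the wild type, which allows up to 2.82%, and 3 of 142 in the knockout (2.11%, 0.438% to 6.05%). They were chosen for having no H3K9me3 peak in their own genotype, so this share too is not independent of the rule. H3K9me3 peaks that were dual were more often listed again in the other genotype than H3K9me3 only peaks. The shares in the wild type were 82.6% (61.2% to 95.05%) and 31.3% (24.02% to 39.4%), beside 38.2% of the whole list. In the knockout they were 94.7% (74.0% to 99.9%) and 66.2% (54.3% to 76.8%), beside 72.0%. The first pair of intervals did not overlap and the second pair did. Dual H3K9me3 peaks were also the higher ones of their lists, and the part of height in this difference was not tested. H3K9me3 only peaks overlapped a PEG3 peak of the other genotype in 10 of 150 cases in the wild type (6.67%) and 9 of 74 in the knockout (12.2%), where the whole lists gave 13.3% and 20.4%.

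**Figure D5:**
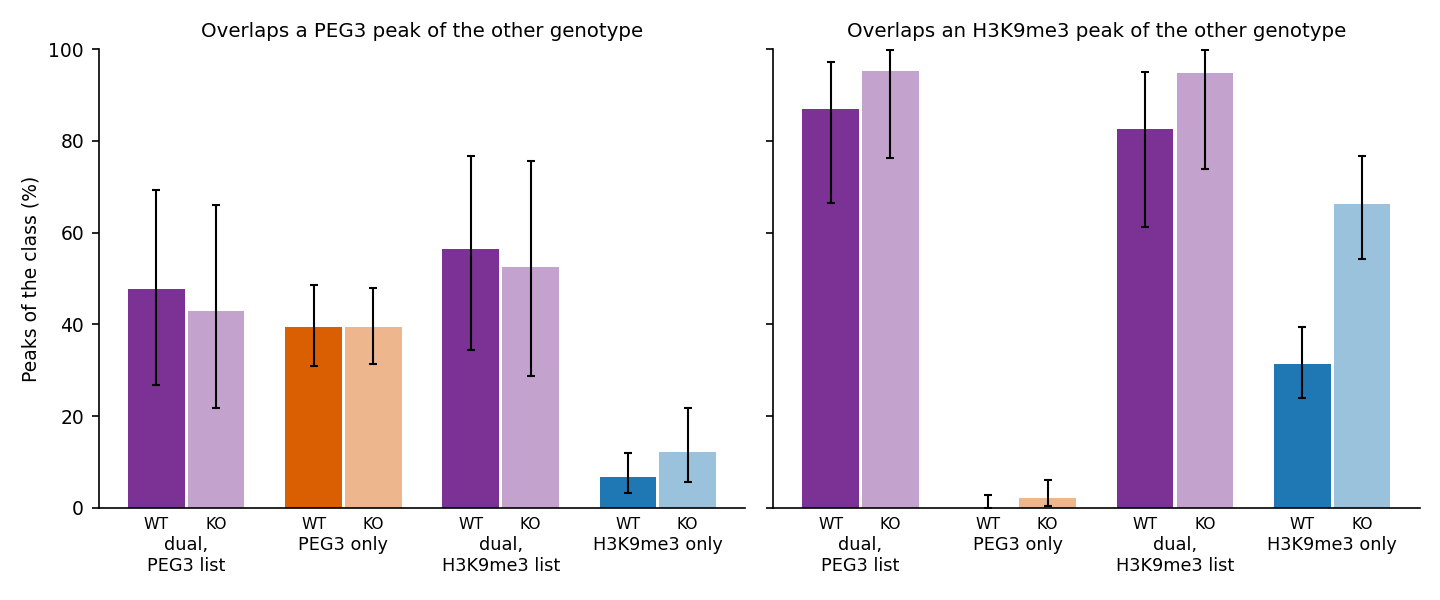
Share of the peaks of each class (%) that overlap a PEG3 peak (left) or an H3K9me3 peak (right) of the other genotype, with 95% exact binomial intervals. Dual peaks reach 87.0% and 95.2% for H3K9me3 in the PEG3 lists, and PEG3 only peaks 0 and 2.11%. The class rule itself uses the H3K9me3 peaks of the same genotype, so this contrast is not independent of it.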

How the data were processed

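ChIP-seq peaks of 2 antibodies in 2 genotypes, 1 library each, were analysed. Bowtie2, SAMtools and MACS2 were the tools and mm10 the build, per the submitters' processing notes. MACS2 2.2.6 called peaks in each library against its genotype's input at a q threshold of 0.05, keeping 1 tag per position and scaling the larger of both data sets down, per the file headers. It extended tags to 104 bp (wild-type PEG3), 99 bp (knockout PEG3), 97 bp (wild-type H3K9me3) and 98 bp (knockout H3K9me3), for which heights were not corrected. For each peak the deposited tables hold a pileup signal at the summit, a fold enrichment (a ratio to the local input), a −log10 p-value and a −log10 q-value. The names of the last pair of columns are damaged in the deposited files, and they were identified by recomputing −log10 p, with a largest difference of 0.00335.

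Heights are pileups with the scaling undone, as fragments per 1000000 kept ChIP tags: 21396407 and 16986250 for wild-type and knockout PEG3, 26295696 and 27289192 for H3K9me3. The input background was recovered from pileup and fold, and inputs kept 24305045 and 26470256 tags. Only listed peaks have values. Intervals of the PEG3 over H3K9me3 height ratios are exact conditional ones and cover counting error only. Those of the height and width ratios between classes come from the ranks of the dual values and take the median of the other class as fixed. Reads carry no molecular identifiers. Genes came from a RefSeq table of build GRCm38.p6 (49993 genes with a position) without exons, and promoter windows from RefSeq.

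Named were all dual sites, the 10 highest single-antibody peaks by height and by fold in each class and genotype (of these, the text gives a part), peaks within 1000 bp of the other antibody, and listed genes within 10 kb. Promoter genes and the 7-letter word were chosen after their values were seen. The classes and gene lists were chosen with earlier results of these data known. Alternatives were a reciprocal overlap of 50%, a gap of 1000 bp, a q of 0.01, a fold of 3, no ceiling peaks, no Y chromosome, merging over 10 kb, other gene distances and the fold in place of height. In simulated lists 40 of 40 planted overlaps were recovered in each genotype. Tables were made with pandas 2.3.3, NumPy 2.4.6 and SciPy 1.17.1 under Python 3.11.15, and figures with matplotlib 3.10.9.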

Additional observations from a re-analysis of the deposited data

Results flagged for a closer look

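The pooled PEG3 over H3K9me3 height at dual sites lay on opposite sides of 1, at 0.849 in the wild type and 1.06 in the knockout (0.981 to 1.14, which holds 1). Without the capped site in Gm34259 both ratios lay below 1, at 0.753 and 0.924. The median width of dual over PEG3 only peaks also lay on opposite sides of 1, at 0.926 in the wild type and 1.06 in the knockout. Neither difference between the genotypes was tested, since each group has 1 library.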

How the results depend on the processing

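No paired analysis was possible because each genotype and antibody has 1 library. Shares were judged by their interval, and ratios by their interval and their side of 1. The count of peaks dual in both genotypes has no interval and was judged by a fixed factor of change. Of 132 alternatives over 23 results, 97 left the value the same by these rules, 24 moved it and 11 turned the direction of a ratio. With a reciprocal overlap of 50%, the dual share fell to 7.89% of PEG3 and 6.94% of H3K9me3 peaks in the wild type and 7.36% of PEG3 and 12.9% of H3K9me3 peaks in the knockout, the H3K9me3 width ratio of the wild type to 1.52, and the wild-type peaks dual in both genotypes to 4. The pooled PEG3 over H3K9me3 height became 1.018 and 1.27. The dual share of wild-type H3K9me3 peaks was 25.4% with a gap of 1000 bp and 20.7% with merging over 10 kb. By the authors' fold, the dual over single-antibody ratios of height became 0.571 for PEG3 and 1.20 for H3K9me3 in the wild type and 0.812 for PEG3 in the knockout, and the PEG3 over H3K9me3 ratios at dual sites 0.654 and 0.870. With a fold of 3 or more, the knockout PEG3 height ratio was 3.18, the wild-type pooled ratio 0.916 and the peaks dual in both genotypes 5. Without ceiling peaks, the height ratio was 2.83, the pooled ratios 0.753 and 0.924, and the knockout PEG3 only share at genes 67.7%. Without peaks in the Peg3 gene, an alternative chosen after seeing the data, the knockout PEG3 height ratio was 0.879. The knockout PEG3 width ratio of 1.06 fell below 1 with a gap of 1000 bp (0.935), a q of 0.01 (0.929), a fold of 3 (0.830), no ceiling peaks (0.850) and no Y chromosome (0.935). The share at genes of every type was 65.2% for dual, 82.9% for PEG3 only and 49.3% for H3K9me3 only peaks in the wild type, and 71.4% for dual, 55.6% for PEG3 only and 51.4% for H3K9me3 only peaks in the knockout. With 5 kb the H3K9me3 only shares were 47.3% and 51.4%, and in the gene body alone the wild-type PEG3 only share was 61.2%. The cause of these changes was not tested. Depth limits the lists to sites that passed the caller, so unlisted sites have no value, and the duplicate filter caps the highest peaks.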
